A study of Mus musculus with 21 samples.

Results

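The regions described here are the p53 peaks of Trp53 WT cells that the authors listed as WT-specific, annotated to an intron and listed with no repeat. They were obtained by joining the deposited table of gene features with that of repeats on chromosome, start and end, and by keeping rows marked as intron and as non-repeat. The join gave 251 peaks of the 2127 WT-specific peaks, in 227 named host genes, and together they cover 99799 bp. They are called repeat-free intronic peaks below. The shortest repeat overlap in the annotation was 50 bp, so the name means that none was listed, and shorter overlaps may exist. The peaks come from CUT&RUN, in which an antibody directs a nuclease to cut and release the DNA around a bound protein, on ID8 cells, an immortalized line from the ovarian surface epithelium of C57BL/6 mice. Untreated, asynchronously growing Trp53+/+ (WT) and Trp53-/- (KO) cells were each profiled with a p53 antibody in 2 samples. The labels do not say how the knockout was made or whether it is 1 clone. Each genotype has 1 peak list, so no value below has an error across samples. The lists hold positions only, with no height or score, and read depth is unknown.

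The protein p53 is a transcription factor that is stabilised by DNA damage and other stress and then binds its sites as a tetramer. Its recognition sequence is a pair of 10-base consensus motifs, each with CATG or a close variant at the centre. Many of the best known p53 sites lie near promoters or in the first introns of genes for cell cycle arrest, apoptosis and repair. Introns also hold sites far from any start, where a bound factor may act as at an enhancer or may have no measurable effect on the host gene. A peak in an intron therefore names the gene in which it lies and not a regulated gene.

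The annotation was first checked against RefSeq gene spans of assembly GRCm38.p6, the assembly of mm10. Of the 227 host names, 191 matched a RefSeq symbol and 3 a synonym, and all 194 matched hosts were protein-coding. The other 33 comprised 31 clone-style names (such as RP24-535N4.2) and 2 others. The midpoint lay inside the span of the annotated host for 210 of the 213 peaks with a matched host, and inside some RefSeq gene for 237 of all 251. The 3 exceptions with a matched host were at Notch1, Fgfr2 and Hspa8, a gene for a constitutive heat shock chaperone. Counted from the RefSeq 5' end of the gene, the Notch1 peak lay at -3.15 kb and the Fgfr2 peak at -22.2 kb. These peaks are intronic by the deposited annotation only. The 3 peaks given to AC114005.5 lay 786 and 827 kb apart on chromosome 8, and 1 of them fell inside Piezo1, which encodes a mechanically gated ion channel.

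Sequence was at hand for the 250 bases before RefSeq transcript starts, and 1 repeat-free intronic peak held such a stretch. It is shown because the peak, in Dagla (the gene for a lipase that makes an endocannabinoid), is the longest of the 251. The stretch lies before the start of Gm30042, a RefSeq gene within Dagla, at chr19:10289922-10290171 on the plus strand. The second stretch lies before the start of Exoc4, the gene for an exocyst subunit, at chr6:33248878-33249127 on the plus strand. It is inside a WT-specific promoter peak of 1009 bp that overlaps a repeat, and Exoc4 also hosts a repeat-free intronic peak. It was chosen after its letters were seen: of 5 promoter peaks of hosts that hold bases before a start, it is the one with an exact half-site consensus, and Ptk7, Cdc42bpg, Aldh1a1 and RP23-284J4.1, with 26 to 222 bases each, had none. Capitals mark the p53 half-site consensus where it was matched exactly, and otherwise CATG. Both are from RefSeq, GRCm38.p6.
Gm30042 upstream, inside the Dagla peak: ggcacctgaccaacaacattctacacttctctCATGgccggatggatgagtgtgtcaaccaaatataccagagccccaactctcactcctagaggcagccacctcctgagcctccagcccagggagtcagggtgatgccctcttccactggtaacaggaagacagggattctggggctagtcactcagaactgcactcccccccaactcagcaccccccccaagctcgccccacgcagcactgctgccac
Exoc4 upstream, inside the Exoc4 promoter peak: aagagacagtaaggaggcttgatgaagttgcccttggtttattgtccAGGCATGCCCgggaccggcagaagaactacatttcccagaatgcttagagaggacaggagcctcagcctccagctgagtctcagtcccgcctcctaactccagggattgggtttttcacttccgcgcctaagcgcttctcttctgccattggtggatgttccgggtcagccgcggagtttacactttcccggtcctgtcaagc

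The stretch in the Dagla peak held CATG at 1 position and no exact half-site consensus, and its GC content was 58.8%. The Exoc4 stretch held 1 exact half-site consensus, with CATG at its centre, and its GC content was 54.8%. Among 32851 upstream stretches of 250 bases, 7.13% held an exact half-site consensus and 53.9% held CATG, with a median GC content of 52.4%. Both motifs read the same on either strand, so one search covers both, and each half-site match shown contains the CATG. A match is a description of letters only, and the bases of the other 250 peaks were not used here.

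Repeat-free intronic peaks were short. Their lengths ran from 189 to 1530 bp with a median of 359 bp (95% interval from order statistics 313 to 388) and quartiles of 226 and 487.5 bp. Of the 251, 77 (30.7%, 95% exact binomial interval 25 to 36.8) were under 250 bp, 60 were at least 500 bp and 6 were at least 1000 bp. The shortest were 189 bp in Hmga2, an architectural chromatin factor gene, and in the clone-named RP23-207P16.1. They were followed by Fam178b (190 bp), Nckap5 (191 bp) and Cmtm8 (192 bp). Intervals throughout treat peaks as independent draws and cover counting error only.

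**Figure D1:**
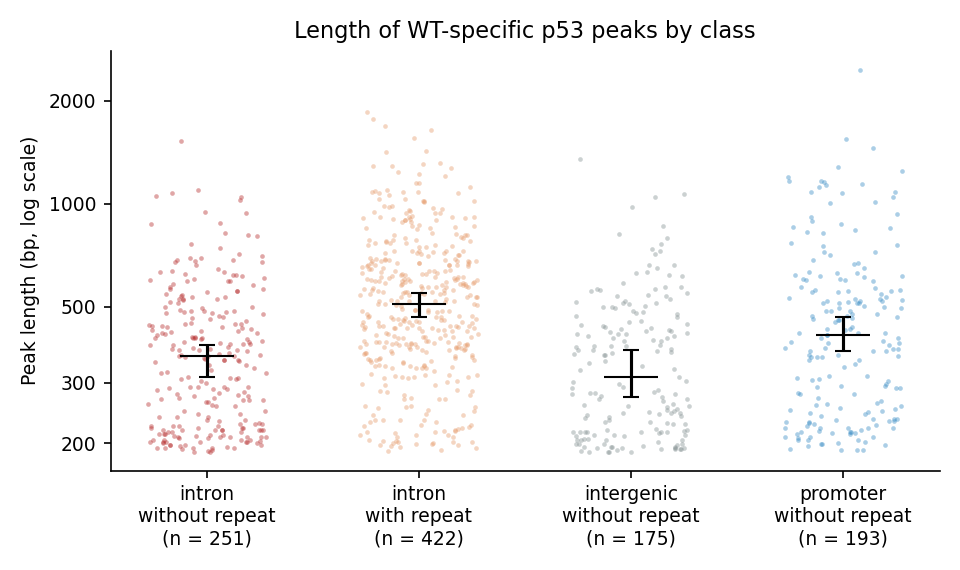
Length of each WT-specific p53 peak (points, log scale) in 4 classes, with the median and its 95% interval from order statistics (black). The medians were 359 bp for intron without repeat, 509.5 bp for intron with repeat, 313 bp for intergenic without repeat and 413 bp for promoter without repeat.

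Among peaks without a repeat, those in introns were shorter than those in promoters. At least the median WT-specific length of 454 bp was reached by 75 of 251 repeat-free intronic peaks (29.9%, 24.3 to 36) and by 87 of 193 promoter peaks without a repeat (45.1%, 37.9 to 52.4), where 50.2% of all WT-specific peaks reach it. This gave an odds ratio of 0.519, with adjusted p = 0.0126 over 12 tests (Fisher's exact test, two-sided, over peaks). At the upper quartile of 637.5 bp the odds ratio was 0.487 and the adjusted p was 0.111 (Fisher's exact test). Against the 175 intergenic peaks without a repeat, of which 46 (26.3%, 19.9 to 33.5) were at least 454 bp, no difference was detectable, with an odds ratio of 1.2 and adjusted p = 0.764 by Fisher's exact test. Intronic peaks with a repeat had a median of 509.5 bp (466 to 548) and reached 454 bp in 57.1% of 422. That contrast has no test, because a longer peak has more bases in which to meet a repeat and the choice of peaks therefore acts on length. The same choice was made in the intergenic and promoter classes, and how far it acts on length there was not tested.

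The longest repeat-free intronic peaks lay in genes of varied function. The Dagla peak of 1530 bp (chromosome 19, positions 10289446 to 10290975) was followed by a peak of 1099 bp in Ldb3, which encodes a Z-disc protein of muscle (chromosome 14, positions 34548347 to 34549445). Clone-named hosts held the next, with 1073 bp in RP23-284L6.7 and 1055 bp in RP24-535N4.2. By RefSeq spans these lie inside C77080 and Ilrun. Rxra, the gene for a retinoid X receptor that pairs with other nuclear receptors, held a peak of 1051 bp (chromosome 2, positions 27745278 to 27746328), 69.4 kb from the RefSeq 5' end. Syn3, a synapsin gene, held one of 1029 bp, which also lies inside the RefSeq span of Timp3. Zmiz1, which encodes a transcriptional coregulator, held 948 bp, and Ankrd44 939 bp. Bre (Babam2 in RefSeq), a subunit gene of a BRCA1 complex, held 882 bp, and Epha4, an ephrin receptor kinase gene, held 875 bp. The remaining 5 of the 15 longest were in Atp6v1a (822 bp), which encodes the catalytic subunit of the vacuolar proton pump, Lhfpl3 (810 bp), Ide (807 bp), the gene for insulin-degrading enzyme, Cdc42bpg (763 bp), a kinase effector of Cdc42, and Sergef (741 bp). The 15 longest ran from 741 to 1530 bp, and 4 of them overlapped a KO peak.

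**Figure D2:**
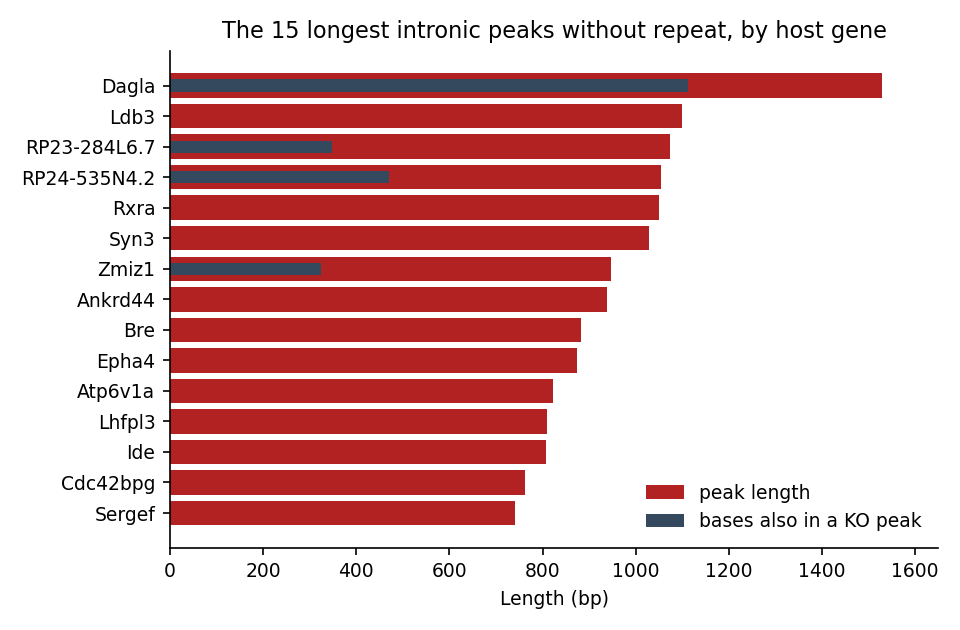
Length in bp of the 15 longest repeat-free intronic peaks by host gene (red bars), with the number of their bases that also lie in a KO peak (dark bars, drawn from 0 and not by position). The Dagla peak shares 1113 of 1530 bp, and RP23-284L6.7, RP24-535N4.2 and Zmiz1 share 348, 470 and 324 bp.

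KO peaks were made with the same antibody in cells without p53. The rule that reduced 6811 WT peaks to 2127 WT-specific ones is not stated and may itself remove peaks shared with KO. The shares below therefore describe what the WT-specific list retains and are not a background rate of the antibody. A KO peak overlapped 10 of the 251 repeat-free intronic peaks by at least 1 bp (3.98%, 1.93 to 7.20), where 3.34% of all WT-specific peaks overlap one. The share was 3.79% of 422 intronic peaks with a repeat, 3.43% of 175 intergenic and 4.15% of 193 promoter peaks without a repeat. None of these contrasts passed the test (odds ratios 1.05, 1.17 and 0.960, adjusted p = 1 each, and unadjusted p = 1 each, Fisher's exact test). Counts of 6 to 16 peaks per class leave wide intervals, so a modest difference was not detectable.

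The 10 peaks with a KO counterpart were longer, with a median of 620 bp against 351 bp for the other 241. Of the 75 peaks of at least 454 bp, 8 overlapped a KO peak, against 2 of the 176 shorter ones. A longer interval has more bases in which to meet a KO peak, and the lengths at Zmiz1 and RP23-284L6.7 include KO bases. This contrast was not tested. Egfr, the gene for the epidermal growth factor receptor and a reported p53 target, had 80.3% of its 634 bp peak (chromosome 11, positions 16803986 to 16804619) inside a KO peak of 509 bp. Ptk7, which encodes a receptor pseudokinase of planar cell polarity, had 80.1% of a 311 bp peak covered. The share covered was 72.7% in Dagla and 61.5% in Cd109, the gene for a membrane-anchored protease inhibitor. In the other 6 it was under 50%, with 48.5% in Mettl24, 44.5% in RP24-535N4.2, 41.9% in RP23-440N1.3, 39.1% in Pax7, 34.2% in Zmiz1 and 32.4% in RP23-284L6.7. Pax7 is a paired-box transcription factor gene of muscle stem cells.

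The intervals at Zmiz1 and RP23-284L6.7 were not WT peaks as listed. The other 249 repeat-free intronic peaks were identical to an interval of the WT list. The Zmiz1 interval of 948 bp equalled the union of a 700 bp WT peak (chromosome 14, positions 25476343 to 25477042) and a 324 bp KO peak (25476095 to 25476418) that share 76 bp. The RP23-284L6.7 interval of 1073 bp equalled the union of a 926 bp WT peak and a 348 bp KO peak that share 201 bp. Over the whole WT-specific list, 13 intervals were not identical to a WT peak and 12 of them equalled such a union. The lengths of 948 and 1073 bp thus include bases that only the KO peak covered. Zmiz1 also had the most KO peaks of any matched host, with 16 in its span of 209 kb.

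Repeat-free intronic peaks had a median gap to the nearest KO peak of 56.3 kb, against 98.3 kb for all WT-specific peaks. The median was 106 kb for intronic peaks with a repeat, 65.4 kb for intergenic and 61.1 kb for promoter peaks without a repeat. Within 50 kb, 48.2% of the 251 had a KO peak. A KO peak within 10 kb was found for 51 (20.3%, 15.5 to 25.8), where 14.5% of all WT-specific peaks have one. For intronic peaks with a repeat it was 60 of 422 (14.2%, 11.0 to 17.9), a difference that did not pass after adjustment (odds ratio 1.54, p = 0.0418, adjusted p = 0.244, Fisher's exact test). With a limit of 50 kb the odds ratio was 1.78 (adjusted p = 0.0054, Fisher's exact test). Against intergenic (21.7%) and promoter peaks without a repeat (18.1%) the odds ratios at 10 kb were 0.919 and 1.15 (adjusted p = 1 and 0.943, Fisher's exact test).

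**Figure D3:**
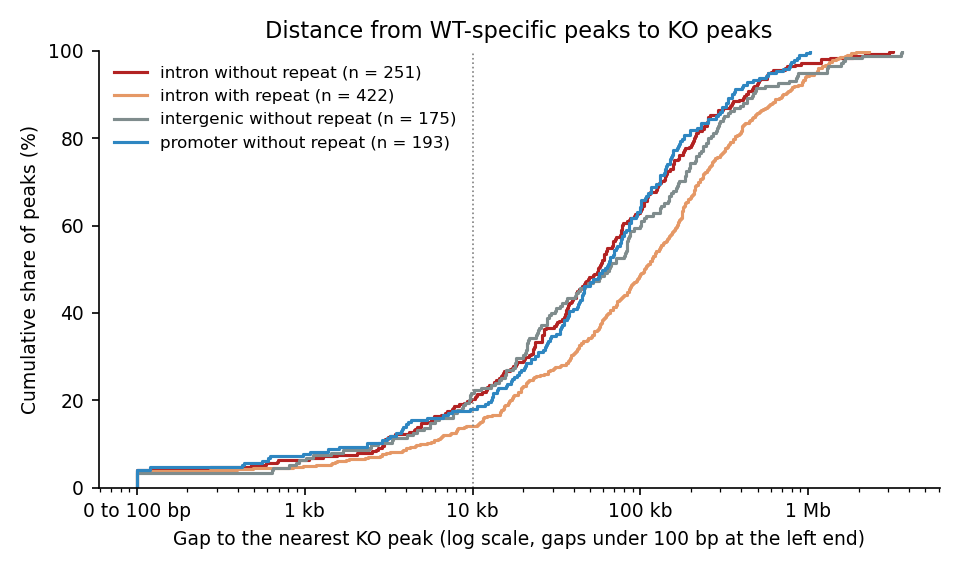
Cumulative share of WT-specific peaks (%) by the gap to the nearest KO peak (log scale, gaps under 100 bp placed at the left end), in 4 classes, with 10 kb dotted. The classes without a repeat run close together, with 18.1 to 21.7% of peaks within 10 kb, and intronic peaks with a repeat lie to their right, with 14.2%.

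The host genes were long. The 194 matched hosts had a median span of 120 kb (95% interval from order statistics 104 to 146), against 17.1 kb for all protein-coding RefSeq genes, and 154 of them spanned at least 50 kb. A longer gene has more intron bases in which a peak can fall, so this comparison does not set these hosts apart. Hosts of intronic peaks with a repeat had a similar median, 111 kb (97.8 to 129, 301 genes). Of all 49997 RefSeq genes, 0.388% hosted a repeat-free intronic peak. The share was 0.886% of 21900 protein-coding genes and 3.11% of the 4945 that span at least 50 kb. The last of these is the closest background for long genes. KO peaks were frequent in the same genes: a KO peak midpoint fell in 86 of the 154 long hosts (55.8%), in 41.6% of 221 long hosts of intronic repeat peaks and in 28.4% of all long protein-coding genes. These shares were not tested, and gene length above 50 kb was not matched.

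Peaks were spread along the host. RefSeq transcript starts with strand were matched for 160 peaks inside their host. Their midpoints lay a median of 33.0 kb (24.6 to 37.4) from the nearest start of the host, and 33 (20.6%, 14.6 to 27.7) were within 10 kb of one. The gene span was divided into 4 equal segments. The segment at the 5' end held 51 peaks (31.9%, 24.7 to 39.7), the second 40, the third 39 and the last 30 (18.8%, 13.0 to 25.7). For 238 intronic peaks with a repeat, the segment at the 5' end held 20.2% (15.3 to 25.8) and the second 34% (28 to 40.4). The intervals for the segment at the 5' end overlap, and the difference was not tested.

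**Figure D4:**
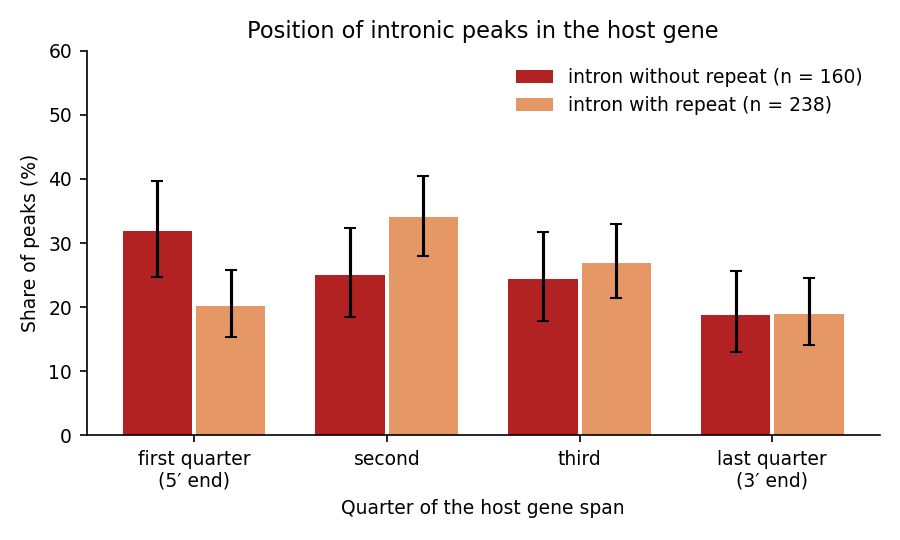
Share of intronic WT-specific peaks (%) in each of 4 equal segments of the host gene span, from the 5' to the 3' end, for 160 peaks without and 238 with a repeat, with 95% exact binomial intervals. Peaks without a repeat are highest in the segment at the 5' end at 31.9%, and peaks with a repeat in the second at 34%.

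A small number lay near a start of the host. Within 2 kb of an annotated start, internal alternative starts included, were 9 peaks, in Pmm1 (0.955 kb), Rev1 (1.16 kb), Glrx3 (1.16 kb), Wnt9a (1.23 kb), Trdmt1 (1.31 kb), Ptpn14 (1.32 kb), Ahnak2 (1.59 kb), Stra6 (1.72 kb) and Agpat4 (0.753 kb), named here after their values were seen. The Stra6 peak lay 72.6 kb and the Ahnak2 peak 8.51 kb from the RefSeq 5' end of the gene, and the other 7 within 2 kb of it. Rev1 is a translesion DNA polymerase gene, and its 362 bp peak spans positions 38128328 to 38128689 of chromosome 1. Wnt9a encodes a Wnt ligand and Ptpn14 a tyrosine phosphatase that restrains Yap. The table of starts lacks many genes, among them Ptk2b and Arhgef10, which host peaks. Counting every start it holds on the chromosomes of 249 peaks, 7 peaks were within 1 kb of one. They were the Pmm1 and Agpat4 peaks and 5 whose nearest start belonged to another RefSeq gene, in Dagla (Gm30042), Plekha6 (Gm51648), Plekha7 (Gm44867), Antxr1 (Gm38851) and RP23-207P16.1 (9030622O22Rik).

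A few established p53 targets were among the hosts. Of 136 genes on 6 lists of p53 targets, 46 had a WT-specific peak of any class in the annotation and 5 (3.68%) hosted a repeat-free intronic peak, against 0.886% of all protein-coding genes. Among the 29 of these genes that span at least 50 kb, 3 did (10.3%), against 3.11% of all such genes. None of 25 genes of cell cycle arrest and feedback, of 24 cell death genes or of 9 noncoding RNA genes was a host, although 14, 10 and 4 of them had a WT-specific peak elsewhere. Most genes on those lists are short, with 3, 2 and 1 of at least 50 kb. The lists, made with earlier results of these data known, and their sizes give no test here.

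Listed targets with a peak included genes of metabolism and signalling. Ephx1, the microsomal epoxide hydrolase gene, held a peak of 528 bp (chromosome 1, positions 181010609 to 181011136), 6.70 kb from its start in a gene of 28 kb. It lay 373 bp from 1 of 2 Ephx1 peaks on a repeat. Lpin1, which encodes a phosphatidic acid phosphatase, held a peak of 355 bp (chromosome 12, positions 16588451 to 16588805), 281 bp from a peak on a repeat. No KO peak fell in either gene. The Egfr peak is the one that a KO peak covered by 80.3%, and Egfr held 5 KO peaks. The Notch1 peak of 359 bp (chromosome 2, positions 26506790 to 26507148) is the one that lay before the RefSeq gene, and Notch1 encodes a receptor for ligands on neighbouring cells.

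Other hosts on the gene lists are given singly, with no count as a group. Actn4, an actin crosslinker gene, held a peak of 677 bp. The formin genes Diaph2 and Diaph3, whose products elongate actin filaments, held peaks of 392 and 381 bp. The myosin genes Myo5a and Myo10 held short peaks of 207 and 201 bp, and Myo10 also hosted an intronic peak with a repeat. The nearest KO peak was 10.4 kb away in Actn4 and 411 kb away in Diaph2, with the other 3 of these genes between. KO peaks fell inside Actn4 (3), Diaph3 (1) and Myo5a (1) and in neither Diaph2 nor Myo10.

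Of 62 growth factor, cytokine, Wnt and TGF-beta signalling genes, 5 were hosts (8.06%), against 0.886% of all protein-coding genes. Among the 42 long ones, 4 were hosts (9.52%), against 3.11% of all long protein-coding genes. These shares were not tested, and the list was made with earlier results of these data known. Notch1 and Fgfr2, whose peaks lie outside the RefSeq span, are counted in the 5, and Fgfr2 also in the 4. Besides Egfr and Notch1 the hosts were Epha4 (875 bp, 9.31 kb from a KO peak) and Bmpr1b, a bone morphogenetic protein receptor gene (291 bp). The last was Fgfr2, a fibroblast growth factor receptor gene (263 bp, outside the RefSeq span, as for Notch1). Of 51 adhesion and matrix genes, 2 were hosts (3.92%), Itgb1 and Itgb5. These integrin subunit genes held peaks of 288 and 194 bp, the latter among the shorter ones in the data. In the long genes of that list the share was 2.63%, near the background of 3.11%.

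None of 48 genes of nucleic acid sensing, interferon response and antigen presentation and none of 26 genes of repeat silencing hosted a repeat-free intronic peak. Only 2 and 10 of them span at least 50 kb, so few hosts would be found at the background share. Among markers of cell types, 1 of 20 ovarian surface epithelium and mesothelium genes was a host, Aldh1a1, and 1 of 18 neuronal and glial genes, Mbp. None of 14 leukocyte genes and none of 12 fibroblast and endothelial genes was a host. The first 2 shares, 5% and 5.56%, rest on 1 gene each, against 0.886% of all protein-coding genes. Those 2 lists hold 7 and 5 genes of at least 50 kb, of which the same single hosts make 14.3% and 20%, where the background is 3.11%. Aldh1a1, the gene for a retinaldehyde dehydrogenase, held a peak of 268 bp (chromosome 19, positions 20559056 to 20559323), and Mbp, a myelin protein gene, one of 693 bp. Peaks mark antibody-directed cuts and not expression, so they do not check the labelled cell type.

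Some hosts also had a peak annotated to a promoter or 5' UTR. Of the 227 hosts, 10 (4.41%, 2.13 to 7.95) also had a WT-specific peak in the promoter or 5' UTR. Among all hosts of intronic WT-specific peaks, these 227 included, 2.89% did. Of 387 hosts of intronic peaks with a repeat, 8 did (2.07%, 0.897 to 4.03), and the difference did not pass the test (odds ratio 2.18, p = 0.135, adjusted p = 0.405, Fisher's exact test across host genes). With promoter and 5' UTR peaks on a repeat left out, the odds ratio was 4.07 (p = 0.0438, adjusted p = 0.175, Fisher's exact test). With the promoter class only, 6 of the 227 hosts had such a peak (2.64%, 0.976 to 5.66). Among the 194 hosts matched to RefSeq, 6 had a promoter or 5' UTR peak (3.09%, 1.14 to 6.61). The share over all genes was not computed. The 10 hosts of either class were Exoc4, Cdc42bpg, Diaph3, Ptk7, Aldh1a1, Ctnnal1 and 4 clone-named hosts (RP23-137L8.2, RP23-386A17.1, RP23-284J4.1 and RP23-244C22.5). In Cdc42bpg the promoter peak of 671 bp and the intronic peak were 315 bp apart. In Exoc4 the promoter peak of 1009 bp, whose upstream bases are shown above, and the intronic peak of 602 bp were 472 kb apart. Aldh1a1 had a promoter peak of 526 bp, 42.0 kb from its intronic one. That promoter peak, at positions 20601282 to 20601807, lay inside the gene, whose RefSeq span begins at 20492583. The Diaph3 5' UTR peak (positions 86810186 to 86811027) also lay inside its gene, whose RefSeq 5' end is at 87141247. Ctnnal1, an alpha-catenin relative, had a 5' UTR peak of 225 bp, 8.53 kb from its intronic peak of 202 bp. The Ctnnal1 5' UTR peak (positions 56837916 to 56838140) lay inside the gene as well, whose RefSeq 5' end is at 56865375.

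More than 1 repeat-free intronic peak was found in 20 hosts, which held 44 of the 251 peaks: 16 hosts had 2 and 4 had 3. The 3-peak hosts were Syn3, Antxr1 (an anthrax toxin receptor gene), Nectin1 (a cell adhesion gene) and AC114005.5. In Syn3 the peaks were 437, 1029 and 208 bp long, and those of 437 and 1029 bp also lie inside the RefSeq span of Timp3. In Antxr1 they were 257, 281 and 542 bp, and the last 2 were 1160 bp apart. In Nectin1 they were 218, 388 and 421 bp, with gaps of 21.7 and 19.0 kb. The closest pair was in Ide, with peaks of 807 and 389 bp only 267 bp apart (chromosome 19, positions 37299316 to 37300122 and 37300390 to 37300778).

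The other pairs included genes of transcription and signalling. Smarca2, a SWI/SNF ATPase gene, had peaks of 616 and 350 bp 2.48 kb apart, and Dagla had 637 and 1530 bp 2.33 kb apart. Runx1, a transcription factor gene of blood development, had 283 and 313 bp 11.2 kb apart. Ptk7 had 311 and 200 bp 13.8 kb apart. Casz1, a zinc finger factor gene, had 209 and 360 bp 54.1 kb apart. Ptk2b, a focal adhesion kinase relative, had 2 short peaks of 224 and 221 bp, and Plekha7, a gene of adherens junctions, had 197 and 201 bp. Plekha6, Ankrd44, Gdpd5, Macrod2, RP24-535N4.2, RP24-366J14.7 and RP24-329K22.2 also had 2 peaks each. Of the 24 gaps between neighbours in a host, 7 were under 10 kb, 6 were over 50 kb and the median was 21.6 kb.

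**Figure D5:**
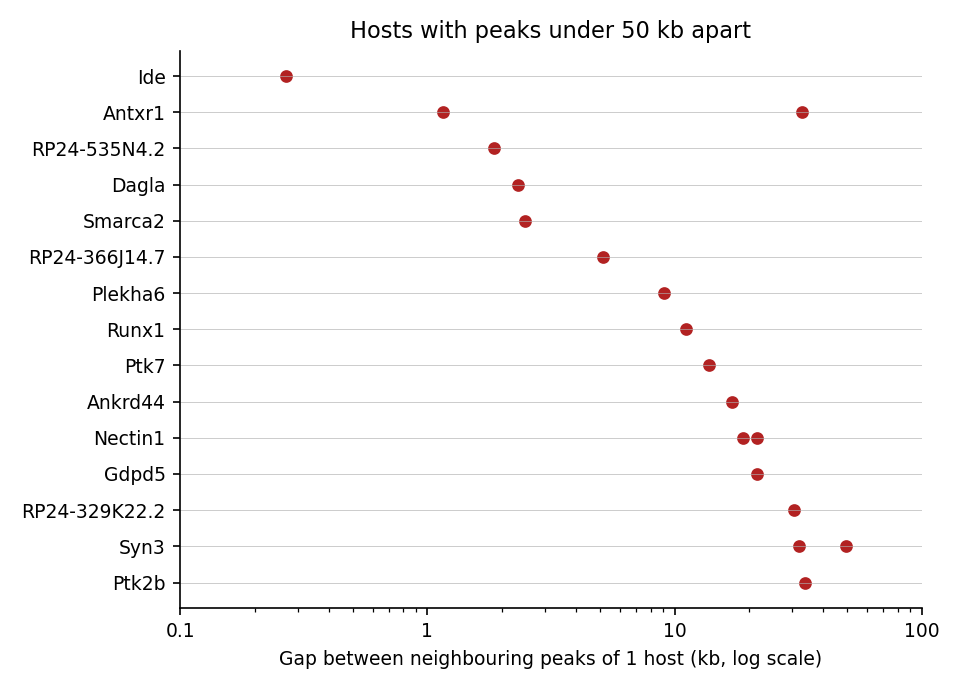
Gap between neighbouring repeat-free intronic peaks of 1 host (kb, log scale) in the 15 hosts with peaks under 50 kb apart, ordered by their smallest gap (each point is 1 of 18 gaps). Gaps run from 0.267 kb in Ide to 49.6 kb in Syn3, and 7 are under 10 kb.

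Counting WT-specific peaks of every class, 33 of the 251 (13.1%, 9.23 to 18.0) had another within 10 kb, where 15.1% of all WT-specific peaks have one. The nearest was a further repeat-free intronic peak for 14, an intronic peak with a repeat for 11 and a peak of another feature class for 8. The shares were 15.9% for intronic peaks with a repeat, 9.14% for intergenic and 7.25% for promoter peaks without a repeat. No contrast passed the test (odds ratios 0.802, 1.5 and 1.94, adjusted p = 0.742, 0.528 and 0.244, Fisher's exact test). Bcl2l1, the gene for the survival protein Bcl-xL and named here after its values were seen, had a peak of 219 bp that lay 1.09 kb from a peak of 908 bp on a repeat and 1.06 kb from a KO peak. Its RefSeq span of 75.1 kb held 8 KO peaks and 7 WT peaks that the WT-specific list leaves out.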

How the data were processed

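CUT&RUN with a p53 antibody was done on 2 Trp53 WT and 2 Trp53 KO samples of ID8 cells. Per the file headers, the lists deposited by the authors give positions on mm10, and no other value. The WT list held 6811, the KO list 9784 and the WT-specific list 2127 peaks, with 1 list per genotype. Per the submitters' processing notes, fastp, Bowtie2, MACS2 and deepTools were among the tools. Versions, settings, pooling of replicates, the rule for WT-specific peaks and the source of both annotations are not stated in the labels or headers. The shortest repeat overlap in the annotation was 50 bp, so shorter overlaps may not be listed. Read depth is unknown. Histone and IgG libraries were not used here.

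Starts were read as 0-based and are printed 1-based. Overlap meant at least 1 bp, and gaps count the bases between peaks. Host names were matched to 49997 RefSeq genes (GRCm38.p6) by symbol or synonym on the same chromosome. Shares carry 95% exact binomial (Clopper-Pearson) intervals. Fisher's exact tests (two-sided) over peaks or hosts compare classes of peaks, not genotypes, and were adjusted over 12 tests by Benjamini-Hochberg. The test was checked on simulated data. The text names hosts on 15 gene lists, hosts with 2 or more peaks, the 15 longest and 5 shortest peaks, peaks at a KO peak and hosts with a promoter or 5' UTR peak. The choice of peaks and the lists, 434 genes from general knowledge, were made with earlier results of these data known. Motifs were searched by exact match. Python 3.11.15, numpy 2.4.6, pandas 2.3.3, scipy 1.17.1 and matplotlib 3.10.9 were used. Some hosts and the counts of 1 list are not reported here.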

Additional observations from a re-analysis of the deposited data

How the results depend on the processing

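The number of repeat-free intronic peaks was 290 with simple and low complexity repeats allowed, 210 with the midpoint inside the RefSeq host and 237 inside any RefSeq gene, and the median length stayed within 351 to 373.5 bp. The share overlapping a KO peak was 1.59% where 50% of the peak had to be covered. The share with a KO peak nearby was 14.7% within 5 kb and 48.2% within 50 kb, and 28.7% had another WT-specific peak within 50 kb. The upper quartile of length was reached by 10.4%. These moves follow from the changed limits. Odds ratios of tests that did not pass changed side of 1 in 7 cases. With 50% of the peak covered by a KO peak they were 0.667 (intron with repeat), 0.692 (intergenic) and 1.03 (promoter), and with 1 peak per gene 1.06 (promoter). For a KO peak within 5 kb they were 1.14 (intergenic) and 0.939 (promoter), and within 50 kb 1.06 (intergenic). The contrast with intronic repeat peaks passed at 50 kb (1.78, adjusted p = 0.0054, Fisher's exact test), where its adjusted p over the alternatives ran from 0.0054 to 0.341. The length contrast with promoter peaks no longer passed at the upper quartile (0.487, adjusted p = 0.111, Fisher's exact test), with adjusted p from 0.0121 to 0.111 over its alternatives. The cause of both changes was not tested. No paired analysis was possible because each genotype has 1 list that carries no replicate number, and for the same reason no replicate could be left out. Choosing the 50 kb limit for other WT-specific peaks, any RefSeq gene, and hosts matched to RefSeq came after seeing the data. Without read depth, no detection limit can be given.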

Other observations

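By chromosome, repeat-free intronic peaks were most numerous on chromosomes 1 and 2, with 22 each (8.76% of 251), where all WT-specific peaks had 8.32% and 7.05%. Chromosome 19 held 17 (6.77%, against 4.18% of all WT-specific peaks) and chromosome 15 also 17 (6.77%, against 4.23%). Chromosomes 18 and X held 2 each, 0.797%, against 1.97% and 2.07% of all WT-specific peaks, and chromosome Y held none of the 251 and 25 of all. These shares were not tested. No annotated miRNA hairpin or mature sequence overlapped a repeat-free intronic peak. Of the 194 matched hosts, 78 also had a peak of the WT list that the WT-specific list leaves out, and 25 of all 227 hosts had an intronic WT-specific peak on a repeat.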
